A study of Mus musculus with 8 samples.

Results

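The Dachsous and Fat giant cadherins were examined in the mouse frontal cortex, with Fjx1, a kinase of their signalling system, and the Celsr cadherins of planar polarity. The family holds 10 genes (Dchs1, Dchs2, Fat1, Fat2, Fat3, Fat4, Fjx1, Celsr1, Celsr2 and Celsr3), taken by gene symbol from a count table of 55536 genes. It was chosen with an earlier comparison of HAR123-KO and WT in these libraries in view, in which Dchs2 was higher in HAR123-KO. Genotype differences of the 10 genes, with their intervals and whether they pass the limits of a call, are therefore given as a description, and they support nothing about the family.

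Dachsous and Fat proteins are very long cadherins that bind each other on facing cell membranes, and in the fly they set the direction in which cells of a sheet are polarised and restrain growth through the Hippo kinases. Fjx1 is the mammalian relative of a fly Golgi kinase that phosphorylates cadherin repeats and so tunes that binding. In mammals, Dchs1 and Fat4 act as a ligand and receptor pair, and mutations in either gene disturb the placement of cortical neurons in people. The Celsr proteins, relatives of the fly core polarity cadherin Flamingo, guide axon tracts and orient the cilia of ependymal cells.

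The libraries were made from total RNA from which ribosomal RNA had been depleted. The 4 WT and 4 HAR123-KO libraries came from mice 8 weeks old. HAR123-KO mice lacked the mouse counterpart of HAR123, an enhancer inside the Smg6 gene, removed with CRISPR-Cas9 in C57BL/6J embryos. Strains had been backcrossed to C57BL/6J, and WT animals were littermates. The deletion was present in every cell, so a difference may arise in the frontal cortex or earlier in development. The number of founder lines, the sex of the animals and whether tissue was pooled are not given in the sources used here. Nothing in the labels says that replicates were separate animals, so errors measure the spread between libraries.

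Total counts ran from 13528251 to 17051001 per library, of which nuclear protein-coding genes other than Lars2 held 2786320 to 3732172. Gm42418, a gene over ribosomal RNA sequence, took 55.1% to 58.0%. Mitochondrial ribosomal RNA held 9.24% to 9.69% of WT and 10.04% to 10.9% of HAR123-KO counts. Smg6 itself averaged 209 ± 7.78 normalized counts in the WT group and 218 ± 15.4 in the HAR123-KO group (SD, n = 4). Markers of cortical excitatory neurons were well counted, with sums of 5072 to 5229 in WT and 4588 to 4938 in HAR123-KO. Of 7 hindbrain and cerebellar markers, 5 were at 0 in every library. Values below are read counts divided by DESeq2 size factors, which ran from 0.888 to 1.18, unless TPM is named.

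The 250 bases before the RefSeq start site are shown for Dchs2, the member that was higher in HAR123-KO, and for Celsr2, its most highly expressed member. Both lie on chromosome 3 of GRCm38.p6, Dchs2 on the plus strand at chr3:83127277-83127526 and Celsr2 on the minus strand at chr3:108415580-108415829. Each is written 5′ to 3′ in the direction of the gene, and capitals mark GC boxes (GGGCGG, or CCGCCC on the other strand).
Dchs2: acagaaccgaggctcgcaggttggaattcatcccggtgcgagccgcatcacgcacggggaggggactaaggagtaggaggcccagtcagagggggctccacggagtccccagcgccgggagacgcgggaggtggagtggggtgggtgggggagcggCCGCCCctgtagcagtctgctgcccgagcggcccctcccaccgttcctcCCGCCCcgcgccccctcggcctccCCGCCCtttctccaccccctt
Celsr2: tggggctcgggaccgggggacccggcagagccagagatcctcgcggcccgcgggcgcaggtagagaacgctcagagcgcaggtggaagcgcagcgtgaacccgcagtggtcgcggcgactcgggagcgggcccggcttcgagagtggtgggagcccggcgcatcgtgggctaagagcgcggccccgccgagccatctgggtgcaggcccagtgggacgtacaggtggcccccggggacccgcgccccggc
Both windows were rich in G and C. Dchs2 had 72.0% G and C, 22 CpG dinucleotides and 3 GC boxes. Celsr2 had 75.2%, 32 CpG dinucleotides and no GC box. Over the 32536 distinct windows of that length in the RefSeq table, the median was 52.4% with 6 CpG, and 33.0% of windows held a GC box on either strand.

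Windows were found for 7 of the 10 genes. Fat3, a receptor-type cadherin described below, had 70.4% G and C and 27 CpG, Celsr3 had 58.0% and 17 CpG with 2 GC boxes, and Fat4 had 54.8% and 11 CpG. The windows of Fat1 and Fat2, with 42.0% and 41.6%, precede RefSeq starts that lie 14761 and 24307 bases inside the GENCODE gene, so they are not windows of the first annotated exon. The Dchs2 window ends 421 bases before the GENCODE start of Dchs2 and lies within the lincRNA Gm10710, which runs on the opposite strand. The TATA box (TATAAA, either strand, 12.3% of all windows) and the core of the site read by TEAD factors at the end of the Hippo pathway (GGAATG, either strand, 12.6%) were also searched. The TEAD core was found in the Fat1 and the Fat2 window, 1 time each, and the TATA box in none of the 7.

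Across the family, Dchs2 stood higher in HAR123-KO by 1.92 times while most of its relatives differed little. A gene was called when its adjusted p was under 0.05 and its log2 difference beyond 0.5 either way (DESeq2 Wald test, all genes). DESeq2 gave an adjusted p to 9 of the 10 genes, all but Fat2, and called 1 of them, Dchs2, with 0 lower. Over all 12758 genes tested, 0.298% were called in either direction and 0.227% as higher in HAR123-KO. Since the family was chosen on this contrast, nothing is read from the count. The median log2 difference of the 9 genes was 0.00, as it was over all genes tested, and 7 of the 9 lay within 0.15 of 0. In bulk tissue, fewer or more cells of a type cannot be told apart from less or more RNA per cell.

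**Figure D1:**
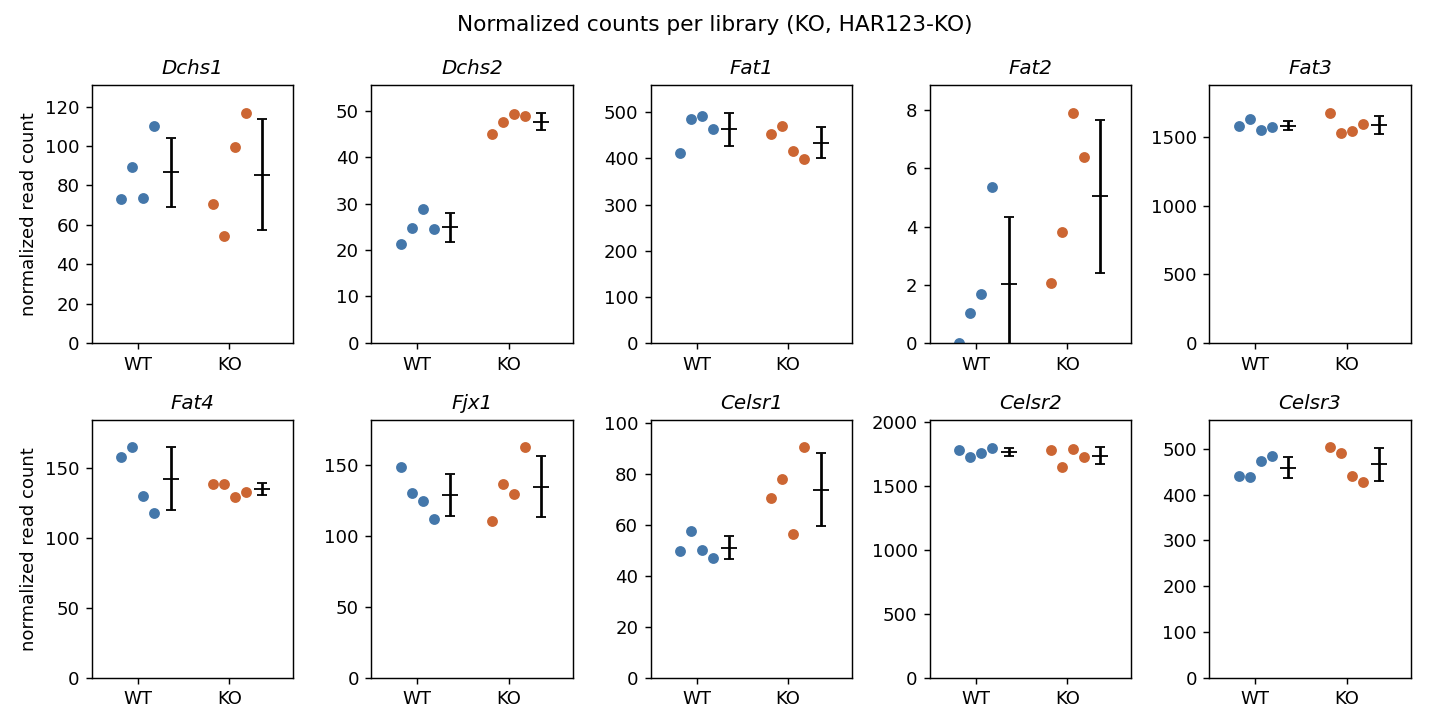
Normalized read count of each gene in each library, with WT in blue on the left and HAR123-KO (KO) in orange on the right. Each point is a library and the bar to the right of the points is the mean ± SD (n = 4). The vertical axes start at 0 and differ between genes. Dchs2 is the gene whose HAR123-KO points all lie above its WT points.

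Dchs1 and Dchs2 encode the Dachsous cadherins, the ligand side of the system. Dchs2 (ENSMUSG00000102692, chromosome 3, 83127948 to 83357209, plus strand, GRCm38) is the less studied of the pair. Its normalized counts were 21.4, 24.7, 28.8 and 24.6 in WT replicates 1 to 4 and 45.05, 47.5, 49.3 and 48.9 in HAR123-KO replicates 1 to 4. The groups did not overlap, and the lowest HAR123-KO library lay well above the highest WT library. Of all genes tested, 4.02% were likewise free of overlap and higher in HAR123-KO. The means were 24.9 ± 3.04 and 47.7 ± 1.92 (SD, n = 4), a log2 difference of 0.93 ± 0.22 (SE) with a 95% interval from 0.49 to 1.36.

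These levels rest on few reads. Dchs2 collected 19, 24, 34 and 23 reads in the WT libraries and 44, 50, 56 and 46 in the HAR123-KO libraries, 100 against 196 in all. The coefficient of variation over the HAR123-KO libraries was 4.03%, below the 14.3% that counting alone gives at this depth, and it was 12.2% against 20% in WT. The tight HAR123-KO points are thus closer together than counting error would put them on average. Without HAR123-KO replicate 4 or WT replicate 3, the filter of DESeq2 on low counts left Dchs2 with no adjusted p and no call, at log2 differences of 0.92 and 1.02.

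Gm10710, the lincRNA on the opposite strand, shares 1299 bases with Dchs2 exons, 12.05% of their length. It collected 0 to 3 reads per library and 12 in all, against 296 for Dchs2. The libraries keep strand, but the strand setting at counting is not given in the sources used here, so reads of Gm10710 could not be told from reads of Dchs2 in that stretch. The nearest genes averaging 10 normalized counts or more did not share the pattern. Plrg1, a splicing factor gene 55.6 kb away on the lower side, had a log2 difference of 0.00 ± 0.15. Tmem131l, 540 kb away on the higher side, had a difference of -0.01 ± 0.14 (SE, 4 against 4 libraries).

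Dchs1 (ENSMUSG00000036862, chromosome 7), the ligand of Fat4, had 73.2, 89.6, 73.7 and 110.2 normalized counts in the WT libraries and 70.65, 54.2, 99.5 and 117 in the HAR123-KO libraries. The groups overlapped along their whole range, and HAR123-KO held both the lowest and the highest library. The WT mean was 86.7 ± 17.4 and the HAR123-KO mean 85.3 ± 28.2 (SD, n = 4), a log2 difference of -0.02 ± 0.28 (SE) with a 95% interval from -0.57 to 0.53. Its coefficient of variation in HAR123-KO, 33.1%, was well above the 10.7% of counting alone. Antisense exons of the pseudogene Gm15645 cover 5.86% of its length, with 8 reads in all.

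The balance of the Dachsous pair was put on the TPM scale, which corrects for gene length and library size. Dchs2 made up 23.1%, 22.0%, 28.6% and 18.6% of the summed Dchs1 and Dchs2 TPM in the WT libraries, and 39.5%, 47.3%, 33.7% and 30.0% in the HAR123-KO libraries. The ranges did not overlap, and the spread within HAR123-KO was wide, with Dchs1 itself at 54.2 to 117 normalized counts there. This share contains the Dchs2 difference and is no separate evidence for it. Dchs1 stayed the larger contributor in all 8 libraries.

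Summed counts of marker genes of other cell types differed with genotype as well. All 12 choroid plexus markers were higher in HAR123-KO, with sums of 96.8 to 110.2 in WT and 761.5 to 792.5 in HAR123-KO. Ttr held most of each sum, with means of 68.2 in WT and 641 in HAR123-KO. Of the 12, 5 averaged 10 normalized counts or more, and 2 had a DESeq2 adjusted p under 0.05. All 12 striatal projection neuron markers were higher too, with sums of 4936 to 5033 in WT and 6535 to 6662 in HAR123-KO. Oligodendrocyte markers (5 of 7 higher) summed to 14690 to 15150 in WT and 16600 to 16970 in HAR123-KO. Sums of deep layer markers (6 of 8 higher) were 1690 to 1806 against 1870 to 1938. A DESeq2 adjusted p under 0.05 was reached by 9 striatal, 3 oligodendrocyte and 0 deep layer markers, beside 1.69% of all tested genes. The part of these cell types in the Dchs2 values was not tested.

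Other lists had lower or overlapping sums in HAR123-KO. Cortical excitatory markers (0 of 6 higher), with the sums given above, and upper layer markers (0 of 6 higher), at 3269 to 3390 against 2973 to 3115, did not overlap. Claustrum and layer 6b markers (1 of 7 higher) summed to 710.9 to 797 in WT and 521 to 567 in HAR123-KO, and endothelial markers (0 of 7 higher) to 426 to 453 and 331 to 353. Meningeal markers (0 of 8 higher) summed to 182 to 223 against 154 to 178, and astrocyte markers (2 of 9 higher) to 21930 to 22530 against 20230 to 20810. Slc1a2 held most of the astrocyte sums, with means of 18760 in WT and 17450 in HAR123-KO. Ependymal markers (4 of 6 higher), of interest here because ependymal cells use Celsr proteins, overlapped at 31.0 to 37.3 and 31.7 to 46.8. No marker of these lists was at 0 in all 8 libraries. Their part in the values of the 10 genes was not tested either.

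The Fat cadherins are the receptors, and none of them was called. Fat4 (ENSMUSG00000046743, chromosome 3), the partner of Dchs1, had 157.6, 164.7, 129.6 and 117.7 normalized counts in the WT libraries and 138, 139, 129 and 133 in HAR123-KO. The HAR123-KO libraries lay inside the WT range. The log2 difference was -0.08 ± 0.12 (SE), with a 95% interval from -0.30 to 0.15. An antisense gene, C230034O21Rik, shares 7.04% of the Fat4 exon length and collected 103 reads against 1116 for Fat4.

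Fat3 (ENSMUSG00000074505, chromosome 9), which shapes neurites of amacrine cells in the retina, was the most abundant Fat gene. Its WT libraries had 1576, 1632, 1549 and 1573 normalized counts, and its HAR123-KO libraries 1677, 1531, 1546 and 1591. The groups overlapped and their means, 1582 ± 35.1 and 1586 ± 65.7 (SD, n = 4), were nearly equal. At this depth the 95% interval of the log2 difference was narrow, from -0.07 to 0.08.

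Fat1 (ENSMUSG00000070047, chromosome 8), which binds actin regulators of the Ena/VASP family, had 412, 486, 491 and 463 normalized counts in the WT libraries and 454, 469.7, 416 and 399 in HAR123-KO. The groups overlapped, with means of 463 ± 36.2 and 434 ± 32.9 (SD, n = 4). The log2 difference was -0.10 ± 0.07 (SE), from -0.23 to 0.03 at 95%.

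Fat2 (ENSMUSG00000055333, chromosome 11), best known from cerebellar granule cells, was close to absent. It collected 0, 1, 2 and 5 reads in the WT libraries and 2, 4, 9 and 6 in the HAR123-KO libraries, 8 against 21 in all. The groups overlapped, DESeq2 gave it no adjusted p, and the log2 difference of 1.33 ± 0.81 (SE) had a 95% interval from -0.27 to 2.93. At this depth a Fat2 difference was not measurable with useful precision, and without WT replicate 4 its log2 difference was 2.39.

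Fjx1 (ENSMUSG00000075012, chromosome 2), the kinase of the system, had 149, 131, 124.5 and 112 normalized counts in the WT libraries and 110.6, 137, 129 and 163 in HAR123-KO. The HAR123-KO libraries spanned the WT range at both ends. The log2 difference was 0.06 ± 0.12 (SE), with a 95% interval from -0.18 to 0.30.

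**Figure D2:**
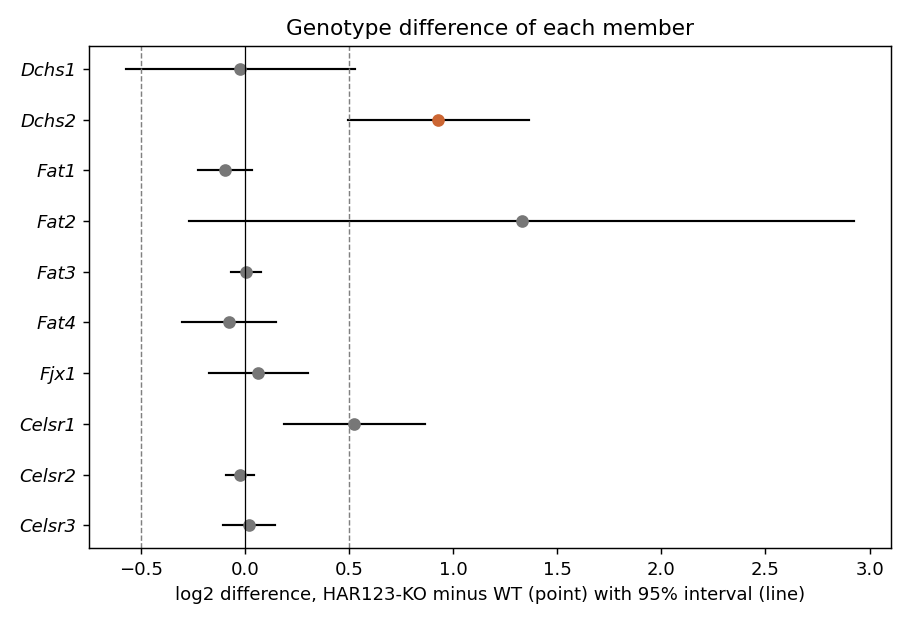
Log2 difference, HAR123-KO minus WT, of each gene (point) with its 95% interval (line) from DESeq2, and dashed lines at -0.5 and 0.5. The orange point is Dchs2, whose groups did not overlap. The interval of Fat2 runs from -0.27 to 2.93, and those of Fat3 and Celsr2 are the narrowest.

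Among the Celsr cadherins, Celsr1 was higher on average in HAR123-KO and its relatives were level. Celsr1 (ENSMUSG00000016028, chromosome 15), known for planar polarity of inner ear, skin and neural tube, had 49.5, 57.7, 49.99 and 47.1 normalized counts in WT. In HAR123-KO it had 70.65, 78.0, 56.3 and 90.4. Replicate 3 of HAR123-KO lay just below the highest WT library and the others above all of WT, so the groups overlapped by that library. The means were 51.1 ± 4.58 and 73.8 ± 14.2 (SD, n = 4), a log2 difference of 0.52 ± 0.17 (SE) with a 95% interval from 0.19 to 0.86.

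DESeq2 did not call Celsr1 (adjusted p = 0.108). The quasi-likelihood test of edgeR called 2 of the 10 genes, Dchs2 and Celsr1, beside 0.503% of the 14503 genes it tested in either direction and 0.331% as higher. DESeq2 also called both genes once HAR123-KO replicate 3, the library in which Celsr1 overlapped WT, was left out. Over 17 alternatives, these 2 were the only calls of Celsr1. Its part of the summed Celsr TPM was 2.14% to 2.74% in WT and 2.60% to 4.25% in HAR123-KO, ranges that overlapped.

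Celsr2 (ENSMUSG00000068740, chromosome 3), which with Celsr3 orients ependymal cilia and guides forebrain axon tracts, had 1777, 1726, 1758 and 1791 normalized counts in the WT libraries and 1776, 1644, 1791 and 1723 in HAR123-KO. The groups overlapped, and the 95% interval of the log2 difference ran from -0.09 to 0.05. Celsr3 (ENSMUSG00000023473, chromosome 9) had 440.2, 439, 473 and 486 in WT and 504, 492, 441 and 429 in HAR123-KO. These groups overlapped too, with a log2 difference of 0.02 ± 0.06 (SE) and an interval from -0.11 to 0.15.

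Levels of the 10 genes were then compared with one another as TPM over nuclear protein-coding genes, using the exon length in the count table. Celsr2 was the highest, with 247 ± 3.96 TPM in the WT group and 243 ± 9.62 in the HAR123-KO group (SD, n = 4), and Fat3 the next, with 119 ± 2.68 and 119 ± 5.12. Fjx1 had 66.3 ± 7.84 and 69.4 ± 10.9, Celsr3 61.3 ± 3.10 and 62.3 ± 5.05, and Fat1 47.7 ± 3.68 and 44.7 ± 3.44. A step down followed to Fat4, with 13.4 ± 2.11 and 12.7 ± 0.432 TPM, and Dchs1, with 12.6 ± 2.53 and 12.4 ± 4.09. Celsr1 had 7.47 ± 0.671 and 10.8 ± 2.06, Dchs2 3.72 ± 0.450 and 7.13 ± 0.275, and Fat2 0.224 ± 0.258 and 0.559 ± 0.290. Dchs1 and Dchs2 were thus both counted at lower levels than Fat1 and Fat3, but not than every Fat gene. Dchs1 lay close to its receptor Fat4, and Fat2 lay below both Dachsous genes.

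Each gene was tested against the next in this order, within libraries, by a two-sided exact sign-flip permutation test of log2(TPM + 0.1) over 8 libraries. Of the 9 neighbouring pairs, 6 differed, each in 8 of 8 libraries, with an exact p of 0.0078, the smallest that 8 libraries allow (adjusted over the 9 pairs, 0.0117). Celsr2 exceeded Fat3 by 1.04 on the log2 scale, Fat1 exceeded Fat4 by 1.82, and Dchs2 exceeded Fat2 by 3.73. The other 3 pairs did not pass the test after adjustment. Fjx1 was above Celsr3 in 6 of 8 libraries (exact permutation test, adjusted p = 0.255), Fat4 above Dchs1 in 5 of 8 (exact permutation test, adjusted p = 0.602) and Dchs1 above Celsr1 in 6 of 8 (exact permutation test, p = 0.0469, adjusted p = 0.0603). In WT, Dchs1 lay above Celsr1 in 4 of 4 libraries, at 10.7 to 16.05 TPM against 6.88 to 8.44, and the libraries in which it lay below were HAR123-KO replicates 1 and 2. The order was set from the same 8 libraries, so the test favours a difference in its direction. The HAR123-KO values of Dchs2 and Celsr1 entered the means and the test. Without HAR123-KO replicate 2, Dchs1 and Celsr1 also differed, which made 7 pairs.

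**Figure D3:**
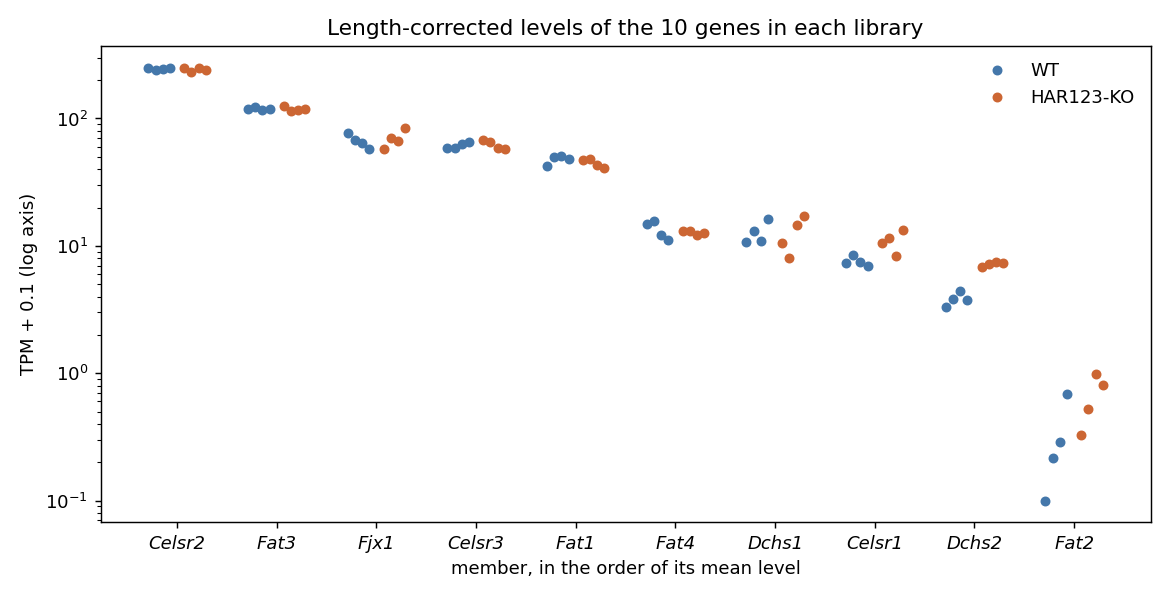
TPM + 0.1 of the 10 genes on a log axis, ordered by mean level, with WT libraries in blue and HAR123-KO libraries in orange. Celsr2 and Fat3 lie above all other genes, Fat4 and Dchs1 share a level near 13, and Fat2 lies below 1 in all 8 libraries.

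A few genes carried most of the family. Celsr2 and Fat3 together made up 71.4% ± 0.931 of the TPM summed over the 9 cadherins in the WT libraries and 70.6% ± 1.05 in the HAR123-KO libraries (SD, n = 4). That sum was 512 ± 5.97 TPM in WT and 512 ± 13.5 in HAR123-KO. The summed level of the cadherins was therefore nearly the same in both genotypes, and Dchs2, with its low level, contributed little to it. The TPM ratio of the ligand Dchs1 to its receptor Fat4 ran from 0.721 to 1.45 in WT and from 0.606 to 1.37 in HAR123-KO, overlapping ranges.

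Genes that act with or beside these cadherins were counted in lists of core planar polarity, Hippo, Fat cytoplasmic partner and other cadherin genes. Of 104 listed genes, all in the table, 85 received an adjusted p. DESeq2 called 0 of the 85 in either direction, beside 0.298% of all genes tested. An unadjusted p under 0.05 was reached by 8 of the 85, near the 8.78% of all genes that reached it. By list, these were 1 of 18 core planar polarity, 1 of 25 Hippo, 3 of 12 Fat cytoplasmic partner and 3 of 30 other cadherin genes. Of the 12 Fat cytoplasmic partners, 2 were higher in HAR123-KO. Among the listed genes edgeR called 1 and limma-voom 0, beside 0.503% and 0.379% of all genes they tested. At these shares, 0 or 1 call in lists of this size does not set the lists apart from other genes. The median log2 differences were -0.02 for core planar polarity, 0.00 for Hippo, -0.07 for Fat cytoplasmic partners and 0.02 for other cadherins, beside 0.00 over all genes tested. List genes named below were picked by their values in these data, so groups without overlap among them are a description. Over all genes tested, 4.02% had no overlap and were higher in HAR123-KO. The share without overlap and lower was not counted.

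Of 23 core planar polarity genes, 18 were tested. Fzd6, a Wnt receptor of the Frizzled family that directs hair patterning, had 14.6 to 20.3 normalized counts in the WT libraries and 23.8 to 36.9 in HAR123-KO, groups that did not overlap. Its log2 difference was 0.85 ± 0.28 (SE), with an adjusted p of 0.107 by DESeq2 and 0.0352 by edgeR, the gene that edgeR called. Over 17 alternatives the adjusted p of Fzd6 ran from 0.0352 to 0.99995 (DESeq2, edgeR or limma-voom) and was under 0.05 in 1. Wnt5a, a ligand of the pathway, had a log2 difference of -0.35 ± 0.24 with overlapping groups (DESeq2 adjusted p = 0.778).

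The Hippo list held 32 genes, 25 of them tested. Tead1, a transcription factor at the end of the pathway, had 78.2 to 102.5 normalized counts in the WT libraries and 99.8 to 116 in HAR123-KO, and the groups overlapped (log2 difference 0.29 ± 0.13, DESeq2 adjusted p = 0.475). Wwc1, an upstream regulator also called Kibra, had 403 to 452.5 in WT and 391 to 399 in HAR123-KO. Those groups did not overlap, and the log2 difference was -0.12 ± 0.06 (DESeq2 adjusted p = 0.618).

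All 12 Fat cytoplasmic partners were tested. Homer1, a postsynaptic scaffold protein gene, fell by 0.14 ± 0.04 (SE) on the log2 scale, from a WT mean of 1279 ± 64.2 normalized counts to 1158 ± 37.0 (SD, n = 4). It passed an adjusted p of 0.05 (DESeq2, 0.0316) as 1.69% of all tested genes did, but not the limit on the size of the difference, and its groups touched at 1183 and 1184. Over 17 alternatives its adjusted p ran from 0.00356 to 0.99995 and was under 0.05 in 7 (DESeq2, edgeR or limma-voom). Homer2, a paralogue named after its values were seen, had 356 to 401.5 normalized counts in the WT libraries and 298 to 355 in HAR123-KO, without overlap (log2 difference -0.19 ± 0.07, DESeq2 adjusted p = 0.229). Cortical excitatory markers were lower in the same libraries, Slc17a7 among them by -0.16 on the log2 scale, and their part in the Homer1 and Homer2 values was not tested.

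Of 37 other cadherins, 30 were tested. Cdh8, a classical cadherin of cortical and striatal circuits, had 209.7 to 233 normalized counts in the WT libraries and 257 to 280.5 in HAR123-KO, without overlap. The log2 difference was 0.26 ± 0.08 (SE), with an adjusted p of 0.0900 by DESeq2, and from 0.0219 to 0.99995 over 17 alternatives. Pcdh17, a protocadherin of corticostriatal pathways, had 464 to 493 in WT and 493.5 to 541 in HAR123-KO, groups that lay next to each other without overlapping (log2 difference 0.13 ± 0.06, DESeq2 adjusted p = 0.439). Sums of striatal markers were higher in the same HAR123-KO libraries, and their part in the Cdh8 and Pcdh17 values was not tested.

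**Figure D4:**
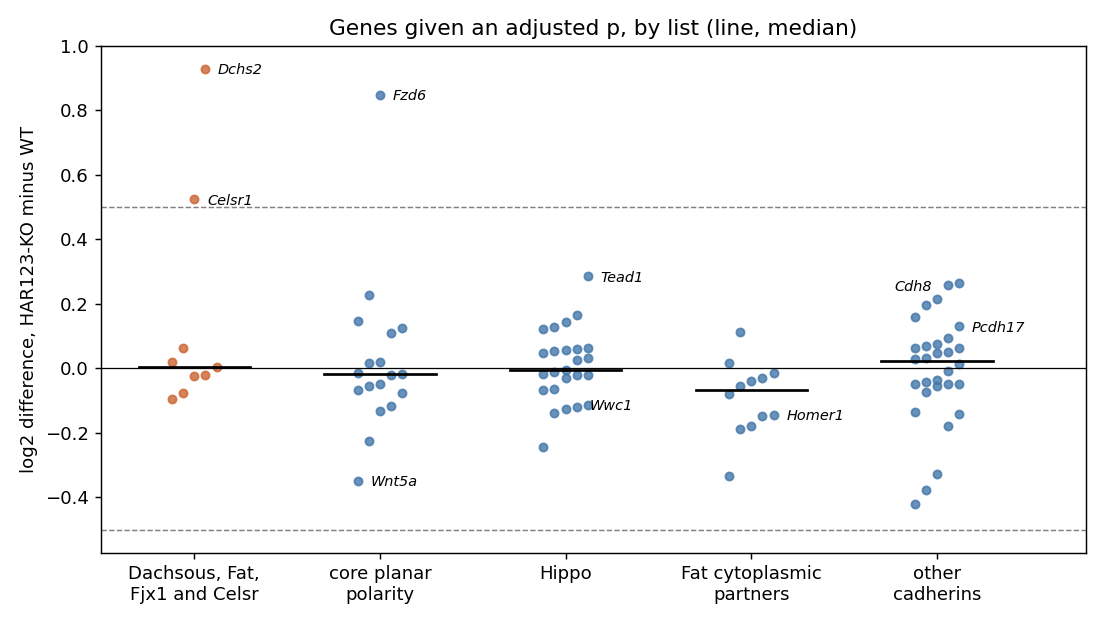
Log2 difference, HAR123-KO minus WT, of each gene with a DESeq2 adjusted p, for the family (orange) and the lists of related genes (blue), with medians as black lines and dashed lines at -0.5 and 0.5. Dchs2 at 0.93, Fzd6 at 0.85 and Celsr1 at 0.52 lie above the upper dashed line, and no gene lies below the lower one.

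Genes whose variation between libraries was like that of Dchs2, after the genotype means were removed, were found by Pearson correlation of log2 normalized counts over 8 libraries. Among the 14463 other genes averaging 10 normalized counts or more the most alike included Strada (r = 0.980), Gm44242 (0.976) and Ppfia3 (0.968). With so few libraries, 52 genes reached an r over 0.9. Each r rests on the same 8 libraries and is given as a description.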

How the data were processed

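Total RNA of mouse frontal cortex was depleted of ribosomal RNA and sequenced in pairs from stranded libraries, 4 of WT and 4 of HAR123-KO. The authors deposited raw read counts per gene, made with STAR 2.5.2b on GRCm38 (Ensembl) and featureCounts over exons. Settings for strand and for reads with several matches are not given in the sources used here. Symbols came from GENCODE M21, in which all 55536 genes were found, and 0 columns were left unused. Counts were tested with DESeq2 1.42.0 (Wald test, genotype only, local dispersion trend in place of the parametric trend that could not be fitted, R 4.3.3). Genes were called at an adjusted p under 0.05 (Benjamini-Hochberg) and an absolute log2 difference over 0.5, the study's limits for this tissue. Its independent filter stopped at a mean of 17.55. edgeR 4.0.16 and limma 3.58.1 were alternatives. TPM was computed over nuclear protein-coding genes other than Lars2. The scripts were tested on simulated data. The 10 genes and all lists were chosen with earlier results of these data known. Named genes were the 10, list genes with an adjusted p under 0.05 or else the pair with the smallest p in each list, neighbours of Dchs2 and the 5 most correlated genes, some of which are not reported here. Samples were grouped by their titles. Promoter windows came from RefSeq (GRCm38.p6). No molecular tags were used, so PCR copies count as separate reads and the true error exceeds that of counting.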

Additional observations from a re-analysis of the deposited data

Results flagged for a closer look

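Over 80 groups of 4 libraries, 3 had a library far from the others of its group, where chance gives about 4. Homer1 had 1183 normalized counts in WT replicate 4, against 1309 to 1313 in the other WT libraries. The upper layer marker sum was 3390 in WT replicate 1, against 3269 to 3289. The neuron marker sum was 25070 in HAR123-KO replicate 4, against 25640 to 25670. None of the 20 groups of the 10 genes had such a library.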

How the results depend on the processing

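Of the 10 genes, 1 (Dchs2) was called in the main test. The count was 2 with edgeR (Dchs2 and Celsr1), 0 with an adjusted p under 0.01 and a log2 difference over 1, 0 with the replicate block (0 too with the local dispersion trend of the main test, where Dchs2 had no adjusted p), and 0 to 2 when each library was left out in turn (0 without WT replicate 3, and 0 too when HAR123-KO replicate 4 was left out). The log2 difference of Dchs2 ran from 0.87 to 1.02 over 17 alternatives, with a call in 13 and no adjusted p in 3, and that of Celsr1 from 0.42 to 0.64, with a call in 2. Over all genes the count of calls was 38 in the main test, 73 with edgeR, 215 with no minimum fold, 3 with the stricter limits, 9 with the replicate block (11 with the local trend), and 11 to 44 when each library was left out, with 11 when HAR123-KO replicate 4 was left out and 18 when WT replicate 3 was. Among related genes the count was 0 in the main test, 1 with edgeR (Fzd6) and 1 with no minimum fold (Homer1). Of the pairs of neighbouring levels, 6 differed in the main test and 0 in the 4 WT libraries alone, where the smallest exact p is 0.125. The count of pairs was 7 without HAR123-KO replicate 2 and with the coding length of the longest coding transcript. That length and the local trend were chosen after seeing the data. The replicate block and the minimum of 10 counts in 4 libraries had a parametric dispersion trend, so each changed the trend too. With the local trend that minimum gave 1 of the 10 genes and 44 of all genes. Of 166 alternative log2 differences of the 10 genes, 165 stayed within the spread between libraries, and Fat2 moved to 2.39 without WT replicate 4. The coding length from a protein table was not run. Libraries with the same replicate number correlated between -0.0274 and 0.0289 over 9280 genes, and 2 of 8 correlated best with their own number. No shared variation by number was seen, which does not exclude that the numbers pair the libraries, for example by litter. The cause of the changes between settings was not tested.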
